A study of Mus musculus with 10 samples.

Results

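RAD23B was mapped by ChIP-seq in wild-type D3 mouse embryonic stem cells, and the regions described here are those that lay far from any annotated gene. The members were chosen by their read counts and position: a region of RAD23B replicate 1 was taken when it overlapped a region of replicate 2, when the ratio of (RAD23B reads + 1) to (IgG reads + 1) in replicate 1 was under 4, and when it stood more than 5 kb from every named gene locus of the expression tables. This gave 8405 regions, 21.7% of the 38822 regions shared by both replicates (exact 95% binomial interval 21.2 to 22.1%) and a part of the 59768 listed in replicate 1. The ratio bound removed 1127 of 9532 shared distal regions, the strongest of them, so these members are distal regions of modest enrichment. Intervals given here cover counting error only, since regions are not replicates of a condition.

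The 2 wild-type replicates each had 1 RAD23B library, made with affinity-purified guinea pig antibodies raised to a RAD23B peptide, and 1 library made with normal guinea pig IgG. A further pair of libraries, RAD23B and IgG, came from Xpc-/- embryonic stem cells whose line is not named in the labels. RNA was sequenced in 4 libraries of the JM8.N4 stem cell line: Rad23b-/-, Rad23b-/- with Xpc knocked down by hairpin KD1, Rad23b-/- with Xpc knocked down by hairpin KD2, and wild type. The RNA thus comes from another line than the ChIP, with 1 library a genotype. The labels do not say whether the ChIP replicates were separate cultures, and each ChIP library was made from several pooled immunoprecipitations.

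RAD23B is a partner of XPC and centrin 2 in the complex that finds distorted DNA and opens nucleotide excision repair. In mouse embryonic stem cells the same complex has been described as a coactivator that works with OCT4 and SOX2. Distal regulatory elements, often clustered, are known to lie far from the genes they serve in these cells, among them the downstream control region of Sox2 and the elements upstream of the miR-290 microRNA cluster.

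The miR-290 cluster on chromosome 7 had 5 members upstream of it and 1 downstream within 50 kb, and the miR-302 cluster on chromosome 3 had 1 member close by. Both clusters are known for microRNAs of early embryonic and stem cells that share a seed, the bases by which a microRNA pairs with its targets. Mature 3p sequences of both clusters, from RefSeq on GRCm38.p6, are given 5′ to 3′ with the seed (bases 2 to 8) in capitals to show that relation. Of the 9 sequences matched, 5 hold the seed of miR-294: those printed below except miR-293-3p, and miR-302d-3p, which is not printed. The printed miR-293-3p has another seed. The choice of these clusters was made after their values were seen.
miR-291a-3p: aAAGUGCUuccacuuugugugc
miR-294-3p: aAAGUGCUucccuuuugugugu
miR-295-3p: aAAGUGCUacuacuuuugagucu
miR-302b-3p: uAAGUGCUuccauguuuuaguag
miR-293-3p: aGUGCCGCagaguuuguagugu

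The strongest region by the authors' replicate 1 fold near the miR-290 cluster was chr7:3192946-3193798 (mm9), 24.8 kb before the listed start of Mir290. It carried 326 RAD23B and 81 IgG reads in replicate 1 and 142 RAD23B and 40 IgG reads in replicate 2. The authors' fold, which is RAD23B over IgG after their scaling, was 3.80 in replicate 1 and 3.49 in replicate 2, so RAD23B reads exceeded IgG reads by over 3 times in both. The 2 members beside it, chr7:3191610-3192105 and chr7:3193873-3194374, had folds of 2.71 and 2.73 in replicate 1 and of 3.92 and 2.26 in replicate 2. Nearer to the cluster, chr7:3203824-3204511 stood 14.1 kb from Mir290 with folds of 2.43 and 3.44, and chr7:3198737-3199340 was weaker (1.79 and 1.66). The member on the far side, chr7:3264369-3265490, had the lowest replicate 1 fold of the 6, 1.33, and 1.75 in replicate 2. Near the miR-302 cluster, chr3:127233147-127233578 lay 6.29 kb from the listed locus, with 99 RAD23B and 29 IgG reads in replicate 1 and 43 RAD23B and 13 IgG reads in replicate 2 (folds 3.18 and 3.14).

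Over all members the RAD23B signal was modest and similar in the 2 replicates. The median member was 535 bp wide and had 151 RAD23B and 69 IgG reads in replicate 1, at an authors' fold of 2.09 (quartiles 1.70 and 2.68). The overlapping replicate 2 regions had a median width of 440 bp, 68 RAD23B and 30 IgG reads, and a fold of 2.31 (quartiles 1.87 and 2.95). Every member had a fold above 1 in both replicates, from 1.08 to 3.81 in replicate 1, where the ratio bound sets the top, and from 1.13 to 7.84 in replicate 2. All regions had been called as enriched over IgG by the authors, so that direction is set by the lists. The replicate 2 fold, which the rule did not use beyond the overlap, was at least 2 in 5686 members (67.7%, interval 66.6 to 68.7%), against 58.5% of all shared regions. It was above the replicate 1 fold in 6110 members (72.7%), as in 69.1% of all shared regions.

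Folds of the members went together in the replicates. Spearman's rho over the 8405 regions was 0.83 for the fold, 0.88 for the deposited RPM and 0.84 for IgG reads per kb. These are descriptions over regions of the same libraries, and the IgG density of the members recurred about as closely as their fold. The read headings of the replicate 2 list name the replicate 1 libraries, so they do not settle which IgG library was counted. The libraries differed in depth (109.3 M reads in replicate 1 and 62.5 M in replicate 2, from the maximum read depth over RPM), and 6321 further distal regions of replicate 1 under the ratio bound met no replicate 2 region. Replicate 2 listed no region whose highest read depth was under 40.

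**Figure D1:**
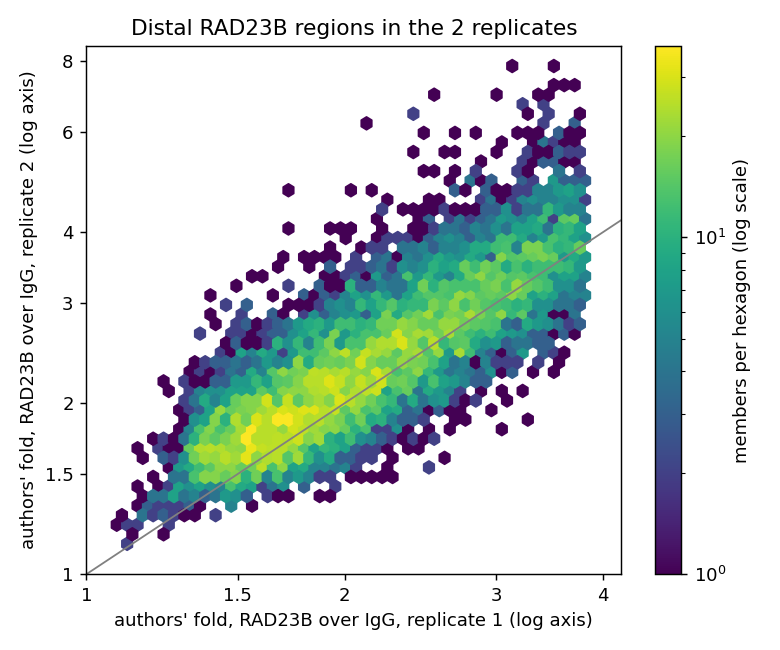
Authors' fold of RAD23B over IgG in replicate 1 (x) and replicate 2 (y), both on log axes, for the 8405 distal regions; colour gives the number of regions in a hexagon and the grey line marks equal folds. Most regions lie above the line (72.7%), and the right edge near 3.81 is the ratio bound.

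The bounds of the rule cut through a continuous range. Just inside the ratio bound, chr6:136418626-136419968 had a replicate 1 ratio of 3.996 (914 RAD23B and 228 IgG reads) and a replicate 2 fold of 3.17, and chr13:65592516-65593320 a ratio of 3.993 and a replicate 2 fold of 4.18. The third, chr1:180289972-180291344, had 3.992 and 3.71. Just outside it, 3 regions at a ratio of exactly 4 (chr1:135236862-135237365, chr1:154764629-154765244 and chr16:9264809-9265360) had replicate 2 folds of 3.60, 4.26 and 4.90. At the distance bound, the members at 5001, 5005 and 5007 bp were chr8:73353266-73354052 near Arrdc2 (replicate 1 fold 1.19), chr15:34496932-34497548 near Nipal2 (3.09) and chr2:77147368-77147800 near Gm13943 (1.33). The regions at 5000, 5000 and 4999 bp that were left out, near Gm5590, Plcxd1 and Gna11, had folds of 2.84, 1.51 and 1.45.

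Set beside other shared regions under the same ratio bound, the distal members had the highest fold and the lowest IgG density of the 4 position classes. Their median folds of 2.09 and 2.31 (replicates 1 and 2) compare with 1.99 and 2.20 in 3069 regions within 5 kb of a locus, 1.93 and 2.14 in 14190 regions inside loci away from starts, and 1.79 and 1.88 in 10827 regions within 1 kb of a gene start. The spread within each class was wider than the difference between their medians. IgG reads were 128 per kb of region in the members, against 134, 140 and 163 in those classes, while RAD23B reads were 270 per kb against 273, 276 and 304 (replicate 1 medians). In replicate 2, IgG reads were 71.9 per kb in the members against 75.4, 78.1 and 95.4, and RAD23B reads were 164 per kb against 164, 166 and 176. The distal regions therefore had fewer RAD23B reads per kb than the promoter regions and fewer IgG reads still, in both replicates. They were also narrower than regions at gene starts (535 bp against 748 bp in replicate 1, 440 bp against 568 bp in replicate 2).

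**Figure D2:**
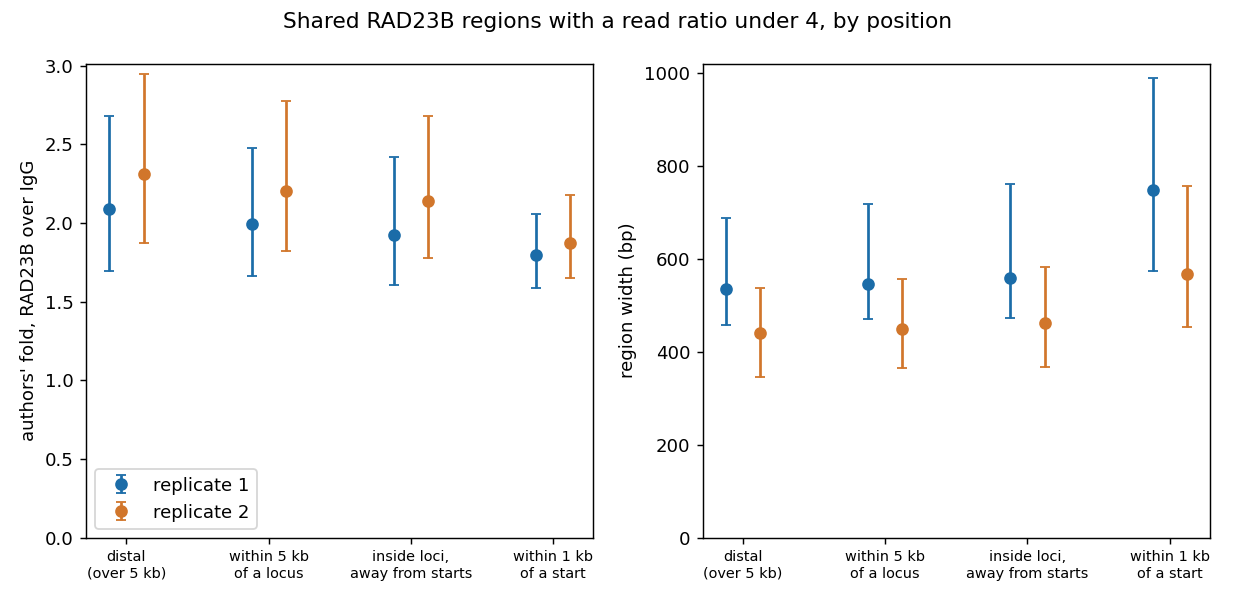
Median (points) and quartiles (bars) of the authors' fold and of region width for shared regions with a read ratio under 4, distal members at the left, replicate 1 in blue and replicate 2 in orange. The fold is highest in distal regions (2.09 and 2.31) and lowest within 1 kb of a gene start (1.79 and 1.88), where regions are widest.

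The ratio bound took more from the distal class than from the others. A replicate 1 ratio of at least 4 was found in 11.8% of distal shared regions (1127 of 9532, interval 11.2 to 12.5%), against 6.58% within 5 kb of a locus, 5.81% inside loci and 1.02% within 1 kb of a start. In replicate 2, whose ratio the rule did not use, these shares were 13.9%, 8.25%, 7.78% and 1.33%. No test was made, since all regions come from the same 2 pairs of libraries.

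Distance from genes varied widely among the members. The median member lay 19.5 kb from the nearest named locus (quartiles 10.2 and 44.0 kb), 1851 members (22.0%) lay beyond 50 kb and 781 (9.29%) beyond 100 kb, and the farthest lay 949 kb away. The median fold was higher in each successive distance class. In replicate 1 it was 2.02 at 5 to 10 kb, 2.06 at 10 to 20 kb, 2.12 at 20 to 50 kb, 2.19 at 50 to 100 kb, 2.25 at 100 to 200 kb and 2.33 over 200 kb. In replicate 2 the same classes had medians of 2.21, 2.27, 2.32, 2.45, 2.56 and 2.60. RAD23B reads per kb fell little over these classes (275 in the nearest and 259 in the farthest), and IgG reads per kb fell more (133 and 114). A higher fold at greater distance thus came with a lower IgG density, whose part in it was not tested.

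**Figure D3:**
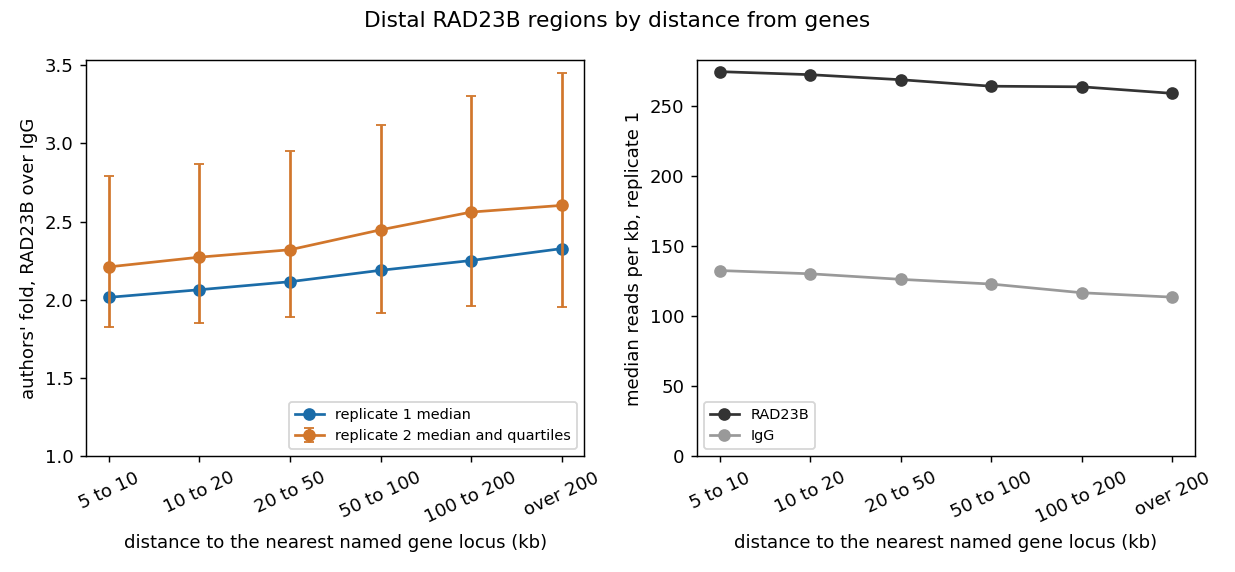
Left, median fold of the members by distance to the nearest named gene locus in replicate 1 (blue) and replicate 2 (orange, with quartiles); right, median RAD23B and IgG reads per kb in replicate 1. Fold climbs from the class at 5 to 10 kb (2.02 and 2.21) to the class over 200 kb (2.33 and 2.60), while the IgG density drops to 114 reads per kb.

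The 10 members of highest replicate 2 fold had 5 to 24 IgG reads in replicate 2, all below the members' median of 30. The first, chr13:112183673-112184100, 24.8 kb from Gm15289, had 108 RAD23B and 32 IgG reads in replicate 1 and 46 RAD23B and 5 IgG reads in replicate 2 (folds 3.15 and 7.84). With 5 IgG reads the replicate 2 fold is imprecise. The second, chr15:62789904-62791381, had 608 RAD23B and 167 IgG reads in replicate 1 and 194 RAD23B and 24 IgG reads in replicate 2, for folds of 3.46 and 7.80. It was 1477 bp wide and stood 165 kb from the nearest listed locus, a SNORA17 entry, and rests on more reads than the other 9. The rest included 3 near protein-coding genes with under 1 RPKM in the wild-type RNA library: chr11:110944044-110944597, 5.91 kb from the potassium channel gene Kcnj2 (folds 3.46 and 7.23), chr1:151962470-151962994, 7.33 kb from Ptgs2, which encodes a prostaglandin synthase (3.71 and 7.13), and chr13:57317220-57317470, 207 kb from Spock1 (3.42 and 6.84). A further 2 lay near genes with RNA, chr17:43119443-43119942 near the death receptor gene Tnfrsf21 (3.03 and 7.003; 6.41 RPKM) and chr3:9244187-9244601 near the zinc finger gene Zbtb10 (2.55 and 6.88; 7.96 RPKM). RPKM is the read count scaled to transcript length and to the mapped reads of the library.

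The widest and most-read members were high in IgG as well. The ratio bound by itself requires many IgG reads in members with many RAD23B reads. Of the 5 widest, 3 lay between Ezh2 and Pdia4, among them chr6:47600492-47637176 (36684 bp) and chr6:47691249-47716770 (25521 bp). The first carried 29055 RAD23B and 25074 IgG reads in replicate 1 and 7094 RAD23B and 5724 IgG reads in replicate 2, with folds of only 1.10 and 1.24. Between Ezh2 and Pdia4, RefSeq (GRCm38.p6) lists 6 protein-coding genes, 3 long noncoding RNA genes, 2 Y RNA genes, 1 rRNA gene and 1 pseudogene. The next pair, chr1:173000293-173005347 and chr1:173008826-173012395, lay between Fcgr3 and Sdhc, where RefSeq lists 17 tRNA genes and 1 protein-coding gene. The folds of this pair were 1.60 and 1.62 in replicate 1 and 1.78 and 1.78 in replicate 2. The members with most reads outside chromosome 6 were chr18:90771345-90772281 (18755 RAD23B and 14414 IgG reads), chr2:181747280-181748204 (15032 and 11646) and chr15:74915714-74917689 (12137 and 8196), at replicate 1 folds of 1.24, 1.23 and 1.41. The 5 members with most RAD23B reads thus had replicate 1 folds of 1.10 to 1.41, all below the members' median. The 841 members in the highest 10% of IgG reads per kb in replicate 1 had median folds of 1.503 and 1.68 in the replicates, against 2.17 and 2.41 in the other 7564. IgG reads are the divisor of the fold, so this sorting by itself lowers the replicate 1 fold.

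Members were unevenly spread over chromosomes. Chromosome 8 held 761 (9.05% of members, against 7.83% of the other shared regions) and chromosome 15 held 701 (8.34% against 6.43%), while chromosome X held 70 (0.833% against 0.934%). Other chromosomes departed too: the share of members was higher on chromosomes 13 (5.66% against 3.42%) and 12 (4.66% against 3.19%) and lower on chromosomes 11 (6.45% against 9.43%) and 7 (4.71% against 7.19%). Chromosomes 8 and 15 stood out in IgG instead: their members had more IgG reads per kb in replicate 1, 150 and 151, against 123 on the other chromosomes, and lower median folds, 1.86 and 1.81 against 2.15. Replicate 2 showed the same order, with 82.5 and 84.2 IgG reads per kb against 69.7, and folds of 2.08 and 2.04 against 2.38. RAD23B reads per kb differed less, 279 and 282 against 268 in replicate 1. The part of the higher IgG density in these lower folds was not tested.

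Many members stood close to another one. Within 12 kb of another member lay 4374 (52.0%, interval 51.0 to 53.1%), against 65.2% of the other shared regions measured among themselves, and 4031 stood alone. Those other regions number 30417, against 8405 members. A larger set has closer neighbours by number alone, so these shares do not compare how far each set clusters. Joined at 12 kb, the members formed 1503 groups of 2 or more, of which 166 held 5 or more. Members in those larger groups had slightly lower folds (medians 1.99 and 2.17) than members alone (2.11 and 2.35). The ratio bound had removed the strongest distal regions before grouping, so this order holds only among the members.

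The 3 largest groups were on chromosomes 15 and 8. Between Scn8a, a sodium channel gene, and Ankrd33, 18 members spanned 54.0 kb (chr15:100882879-100936832), with a median fold of 1.63 in replicate 1 and 1.83 in replicate 2 and replicate 2 folds from 1.35 to 3.30. Next to Gm5607, 17 members spanned 65.9 kb (chr8:12445033-12510905), at median folds of 1.84 and 2.09 and replicate 2 folds up to 3.96. Between Rbfox2, which encodes a splicing regulator, and Apol7a, 17 members spanned 33.1 kb (chr15:77166059-77199109), at 1.80 and 1.91. None of the 3 groups had a median fold above that of all members.

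The genes with most members as their nearest locus were of mixed kinds. Ttc29 led with 22 members. Sall1, a zinc finger factor, was nearest to 18 members, the strongest of them chr8:91525846-91528430 (1475 RAD23B and 430 IgG reads in replicate 1, 495 and 87 in replicate 2; folds 3.27 and 5.64), 22.7 kb away. The listed locus with Sox2, and that with Jarid2, a partner of Polycomb repressive complex 2, were each nearest to 14, as was Sik1, a salt-inducible kinase. Mtdh was nearest to 13. Ttc29 had only 0.410 RPKM in the wild-type RNA library, which is of another line than the ChIP, and Ly86, with 13, was listed at 0. Any relation between members and RNA of the nearest gene was not tested. Ttc29, Sall1, Sipa1l2 (17 members) and Gm5607 (16) are on chromosome 8, where IgG density was high.

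Of the pluripotency genes examined, most had a member within 100 kb of their listed locus. This held for 29 of 32, that is 90.6%, against 42.2% of all named genes and 51.3% of protein-coding genes that reached 1 RPKM in wild-type cells. Nodal pathway genes had one in 7 of 9, differentiation regulators in 12 of 17 and housekeeping genes in 8 of 12. The median count was 3.5 members a pluripotency gene, 4 a Nodal gene, 2 a differentiation regulator and 1.5 a housekeeping gene, against 1 for active protein-coding genes. The lists are short and were chosen with results of these data known, and long or merged loci reach more of the genome. The housekeeping genes with none were Hprt, Pgk1, Rps18 and B2m.

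Sox2, which pairs with OCT4 on DNA, had 6 members beyond the end of its listed locus, which at 578 kb is shared by 7 genes. The strongest in replicate 2, chr3:34655165-34656410, lay 73.6 kb past that end with 579 RAD23B and 149 IgG reads in replicate 1 and 230 RAD23B and 48 IgG reads in replicate 2 (folds 3.69 and 4.72). A second, chr3:34633715-34634374, had 340 RAD23B and 87 IgG reads in replicate 1 and folds of 3.70 and 3.07. The other 4 members had replicate 2 folds of 1.62 to 3.001, so 1 region stood above the rest in replicate 2.

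Between Nanog, whose product is a homeodomain factor of the naive state, and Dppa3 lay 6 members within 100 kb of Nanog. The strongest, chr6:122612533-122613453, lay 44.1 kb upstream of Nanog and 32.2 kb beyond Dppa3, a maternal factor gene, with 698 RAD23B and 175 IgG reads in replicate 1 and 290 RAD23B and 78 IgG reads in replicate 2. Its folds were 3.79 and 3.69, and the other 5 reached at most 2.68 in replicate 2. Other gene loci stood nearer than Nanog to all 6, and Dppa3 was the nearest locus of 1. Pou5f1, which encodes OCT4, had 7 members within 100 kb and was the nearest locus of 2. The strongest, chr17:35636571-35637088, 5.89 kb upstream, had folds of 3.31 and 3.40 on 148 RAD23B and 42 IgG reads in replicate 1.

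The Krüppel-like factors Klf4 and Klf2 had strong members at different distances. Klf4 had 3, of which chr4:55490016-55491231, 48.8 kb downstream, had 588 RAD23B and 148 IgG reads in replicate 1 and 274 RAD23B and 67 IgG reads in replicate 2 (folds 3.77 and 4.05). Klf2 had 8, of which chr8:74834639-74835594, 7.34 kb upstream, carried 610 RAD23B and 163 IgG reads in replicate 1 and 299 RAD23B and 87 IgG reads in replicate 2 (3.55 and 3.41). Both members thus had folds above 3 in each replicate. Other gene loci stood nearer than Klf4 to all 3 of its members, and Klf2 was the nearest locus of 1 member.

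Prdm14, a repressor of primed-state genes, was the nearest locus of 10 members, all downstream of it. The one of highest replicate 2 fold, chr1:13085524-13086009, 17.5 kb from the gene, had 144 RAD23B and 40 IgG reads in replicate 1 and 73 RAD23B and 13 IgG reads in replicate 2 (folds 3.38 and 5.29). The 10 had replicate 2 folds from 1.73 to 5.29, and 3 shared regions beyond the ratio bound stood among them. Tbx3, a T-box factor on a locus shared by 4 genes, had 13 members, of which chr5:120029737-120030414 had the highest replicate 2 fold (3.29 and 4.24 in replicates 1 and 2). Tcl1, a cofactor of AKT kinase, had 3, led in replicate 2 by chr12:106497041-106497912 (3.08 and 4.72). Otx2, a factor of the primed state, had 7, up to 3.62 and 4.28 at chr14:49373649-49374257. Socs3, an inhibitor of the LIF signal, had 15, but none above 2.96 in replicate 2. The Tbx3 locus was nearest to 7 members, Tcl1 to 2, Otx2 to 1 and Socs3 to 3.

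**Figure D4:**
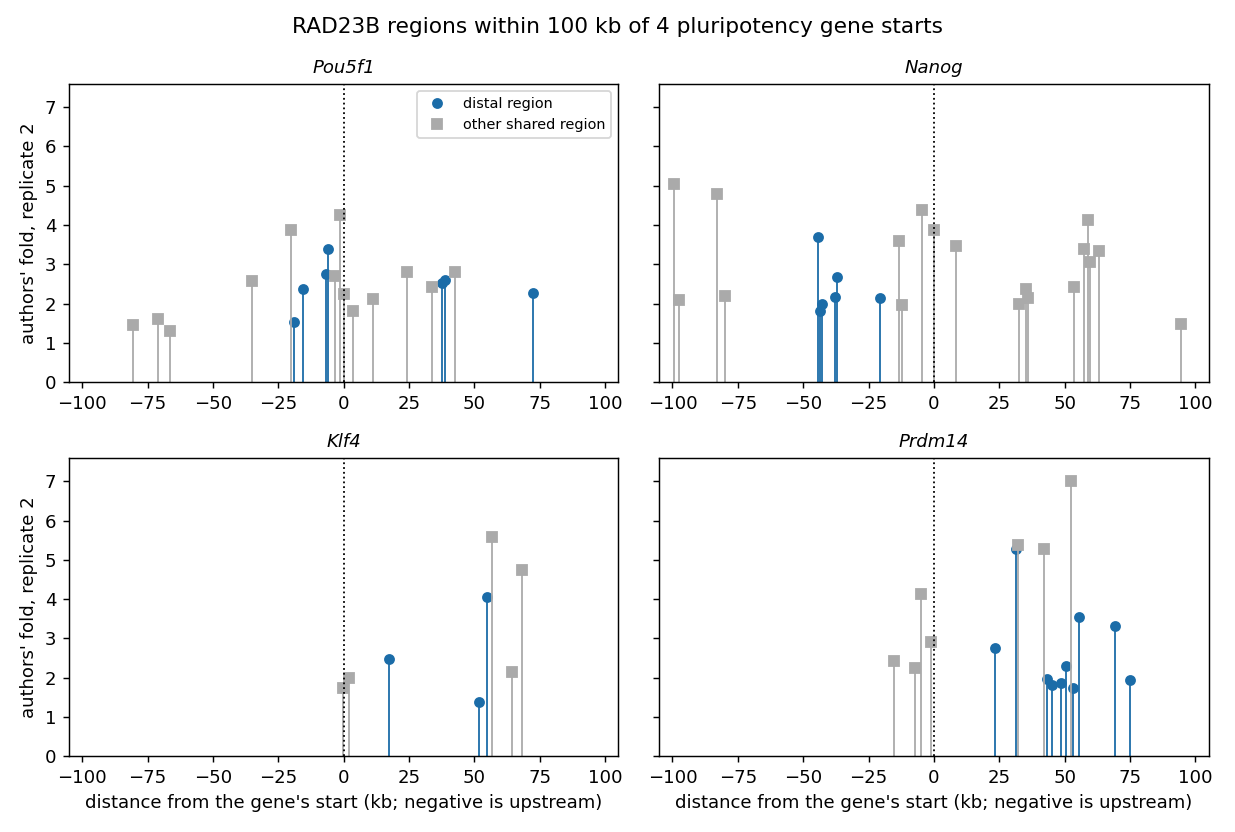
Authors' replicate 2 fold of distal members (blue circles) and of other shared regions (grey squares) by distance from the start of Pou5f1, Nanog, Klf4 and Prdm14, which have listed coordinates of their own; negative distances are upstream. Members cluster downstream of Prdm14 (up to 5.29) and upstream of Nanog (up to 3.69), and grey regions among them are within 5 kb of a locus or at a ratio of 4 or more.

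Among other listed genes, Lefty1, which encodes a Nodal inhibitor, had 6 members within 100 kb, up to 2.20 and 4.30 at chr1:182965592-182965947, where the replicate 2 fold rests on 42 RAD23B and 9 IgG reads. Smad7, an inhibitor of the same signal, had 11 members, up to 2.91 and 3.45. Lefty1 and Smad7 were each the nearest locus of 1 member. Of the differentiation regulators, Neurog1, a proneural factor, had the strongest, chr13:56317356-56317951, with 197 RAD23B and 54 IgG reads in replicate 1 and 121 RAD23B and 27 IgG reads in replicate 2 (3.43 and 4.36). Gata4, Gata6, Foxa2, Pax6 and Nkx2-5 had none. The highest replicate 2 fold at any housekeeping gene was at Ppia, with folds of 2.54 and 3.37.

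Few members overlapped a region of the Xpc-/- list. This list, from 1 library, held 828 regions, and every one had more reads under its IgG heading than under its RAD23B heading. At chr8:12504415-12504600, for example, 35 reads under the RAD23B heading and 70 under the IgG heading came with a deposited fold of 1.62. The list therefore cannot be read as RAD23B binding without Xpc until those headings are settled. Of the members, 46 overlapped it (0.547%, interval 0.401 to 0.729%), against 1.23% of all shared regions. Of these 46, 27 were on chromosome 8, which also held 57.6% of that list. Off chromosome 8 the overlap was 19 of 7644 members (0.249%, interval 0.150 to 0.388%), against 0.659% of all shared regions there.

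The members that overlapped had more IgG reads per kb than those that did not (165 against 128) and lower median folds, 1.89 against 2.09 in replicate 1 and 1.87 against 2.31 in replicate 2. The 3 of highest replicate 2 fold were chr8:12504102-12505303 (folds 3.26 and 3.96) and chr8:12501768-12503905 (3.75 and 3.67), both in the group beside Gm5607, and chr2:71490170-71491002 near Gm1631 (3.32 and 3.63). Since the Xpc-/- list is much shorter, overlap could only be rare.

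The RNA libraries place the members beside genes with and without transcripts. The wild-type library expressed all 8 embryonic stem cell markers examined at 44.6 RPKM or more, and none of 8 fibroblast markers reached 1 RPKM there (1 did in each mutant). Of 6 trophectoderm markers 2 reached 1 RPKM in wild type, and 3, 4 and 4 did in Rad23b-/-, KD1 and KD2 cells. Summed over that list, RPKM was 53.9 in Rad23b-/- cells, 45.04 with KD1 and 26.5 with KD2, against 40.5 in wild type. Of 6 primitive endoderm markers 3 reached 1 RPKM in wild type (sums 8.63, 7.66 and 7.79 in the mutants, against 6.07). The 3 neural markers listed summed to 9.07, 6.89 and 9.71, against 10.9. Among them Neurog1 stood lower in all 3 mutants (log2 ratios of RPKM + 1 of -1.92, -1.51 and -1.69). Pax6 stood higher in all 3 (0.46, 0.33 and 0.85). A sum can thus hide markers that moved in opposite directions. In such bulk RNA, fewer cells of a type and less RNA per cell cannot be told apart, and the part of these cell types in the differences below was not tested. The targeted genes were lower in the mutants. Rad23b had 43.9 RPKM in Rad23b-/- cells, 35.8 with KD1 and 52.5 with KD2, against 229 in wild type, and Xpc had 8.34, 0.915 and 0.895 RPKM, against 8.73.

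The nearest locus was active (RPKM of at least 1 in wild type) for 4524 members (53.8%, interval 52.8 to 54.9%), against 41.9% of all named loci and 75.7% among the other shared regions. Counting only protein-coding loci, the share was 67.6% of members, against 52.9% of all such loci. The share was lower at the larger distances: 58.4% at 5 to 10 kb, 58.6% at 10 to 20 kb, 54.4% at 20 to 50 kb, 46.4% at 50 to 100 kb, 38.9% at 100 to 200 kb and 32.5% over 200 kb. Members thus stood beside active loci more often than a count over all loci would give, and less often than the other shared regions. That count takes each locus once, while the members had 4568 distinct nearest loci. Most of the other shared regions lay inside loci or within 1 kb of a gene start (14190 and 10827 under the ratio bound), so position differs between the sets. They also include the 1127 distal regions at a ratio of 4 or more. The nearest locus was protein-coding for 5439 members, a long intergenic RNA for 791, a pseudogene for 651 and a microRNA for 385.

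In the mutants, the shares of genes nearest to members that differed were close to those of all genes. In Rad23b-/- cells, 131 of 2918 nearest genes (those reaching 1 RPKM in the mutant or the wild-type library) were at least 2-fold higher (4.49%, against 4.74% of all genes), and 162 were at least 2-fold lower (5.55%, against 4.61%), on the scale of log2(RPKM + 1). With KD1 the shares were 3.55% higher (all genes 3.95%) and 4.10% lower (all genes 3.4%), and with KD2 3.78% higher (3.93%) and 4.05% lower (3.6%). The median log2 ratio of nearest genes was -0.17, -0.15 and -0.15 in the 3 mutants, against -0.16, -0.14 and -0.14 over all genes, so all genes as a whole stood slightly lower. Centring on the median of all genes shifts nearest and all genes alike: 6.03% of nearest genes were then higher and 3.60% lower in Rad23b-/- cells, against 6.20% and 3.07% of all genes. A pseudocount of 0.1 RPKM gave larger shares, with KD1 6.29% higher and 5.91% lower (all genes 6.70% and 4.95%) and with KD2 6.70% and 5.57% (all genes 6.96% and 5.16%). Whether more of the nearest genes stood higher or lower thus depends on the scale. The share that stood lower was above that of all genes on each of these scales. With protein-coding loci only, a choice made after seeing the data, shares were smaller, 2.34% higher and 4.44% lower in Rad23b-/- cells (all such genes 2.94% and 3.39%). With 1 library a genotype there is no test, and the 3 comparisons share the wild-type library.

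The members were also divided into 4 equal classes by replicate 2 fold. Nearest genes of the highest class (fold 2.95 to 7.84) were at least 2-fold lower in 6.62%, 5.16% and 4.77% of cases in Rad23b-/-, KD1 and KD2 cells. In the lowest class (fold 1.13 to 1.87) these shares were 5.72%, 3.93% and 4.00%, against 4.61%, 3.40% and 3.60% of all genes. The highest class had the largest such share of the 4 in each mutant, a difference that was not tested. At least 2-fold higher were 4.35%, 3.94% and 3.28% in the highest class and 3.72%, 3.36% and 3.81% in the lowest, against 4.74%, 3.95% and 3.93% of all genes. Median log2 ratios of the nearest genes were -0.19, -0.15 and -0.16 in the highest class and -0.18, -0.16 and -0.15 in the lowest. The highest class lay farther from genes (median 24.6 kb, against 17.3 kb) and less often beside an active locus (49.2%, against 54.5%).

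Several pluripotency genes with a member within 100 kb had less RNA in the mutants, in a list chosen with that pattern known. Of these 29, 8 were at least 2-fold lower in all 3 mutant libraries, namely Nanog, Klf4, Esrrb, Tfcp2l1, Tbx3, Prdm14, Dppa3 and Tcl1, and 1, Dnmt3l, was at least 2-fold higher in all 3. Of 15459 named genes that reached 1 RPKM in any library, 1.82% were at least 2-fold lower in all 3 and 1.66% at least 2-fold higher. Prdm14, nearest to 10 members, had 5.07 RPKM in Rad23b-/- cells, 6.44 with KD1 and 7.01 with KD2, against 19.8 in wild type. Sox2 and Otx2, whose strongest members had higher replicate 2 folds than that of Nanog, had log2 ratios of -0.58 and 0.08 in Rad23b-/- cells, and Pou5f1 had -0.48. Genes near strong members therefore differed widely in how their RNA stood in the mutants. The median log2 ratio over the 29 was -0.58, -0.40 and -0.32, against -0.31, -0.21 and -0.34 over the 8 housekeeping genes with members.

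**Figure D5:**
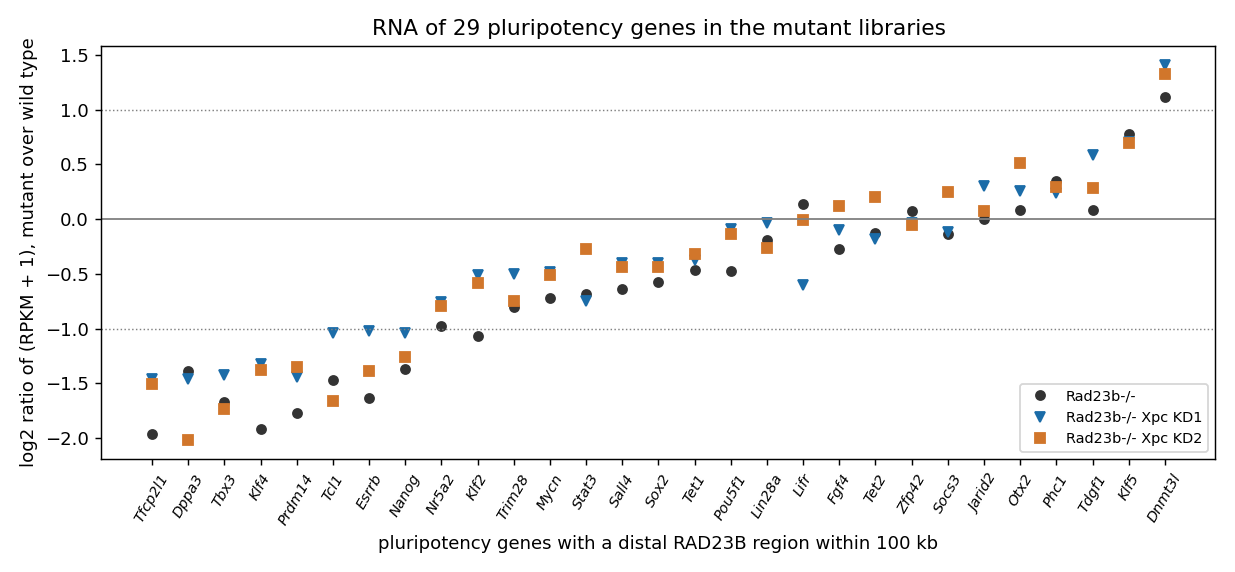
Mutant over wild-type level, as log2 of the ratio of RPKM + 1, for the 29 pluripotency genes with a distal RAD23B region within 100 kb, 1 library a genotype; dotted lines mark 2-fold. The 8 genes at the left are below -1 in all 3 mutant libraries and Dnmt3l at the right is above 1 in all 3.

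Among the nearest genes with the most extreme mean ratios, 19 of 20 were genes of short RNAs, whose RPKM in poly-A libraries of 50-base reads moves with very few reads and does not count the mature RNA. Mir290 was listed at 245 RPKM in Rad23b-/- cells, 62.7 with KD1 and 30.6 with KD2, and at 0 in wild type. Of the 7 listed genes of the cluster, 4 stood above wild type in all 3 mutants and 3 in some of them. Mir294, for example, was listed at 287, 189 and 185 RPKM in the mutants, against 68.0 in wild type, and Mir291a at 0, 56.9 and 28.0, against 35.9. Summed over the 7 genes, RPKM was 2012, 1640 and 1085 in the mutants, against 904 in wild type. Mir302b, on a locus shared by 6 genes, was listed at 0 in all 3 mutants, against 73.4 in wild type, while the other miR-302 genes were listed at 0 in every library.

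Restricted to the 1471 protein-coding nearest genes with listed coordinates of their own, a choice made after seeing those values, 32 were at least 2-fold lower in all 3 mutants (2.18%) and 16 at least 2-fold higher (1.09%), against 1.43% and 1.55% of all such genes. The lowest were Klhdc7a (0.216, 0.302 and 0.180 RPKM in the mutants, against 7.45 in wild type), Gm3625 and Rad23b itself, which was the nearest locus of a member 6.95 kb away (chr4:55355473-55355969; folds 2.15 and 3.30). Fos, an immediate early gene nearest to 5 members, had 10.2, 8.35 and 8.28 RPKM in the mutants, against 39.9 in wild type. Fgfr4, a growth factor receptor gene, had 1.91, 1.43 and 1.69, against 10.0. Among the highest were Adm, which encodes adrenomedullin (55.9, 50.8 and 75.9 RPKM, against 13.1), and Id1, a target of BMP signalling with 3 members (84.0, 67.2 and 64.2, against 18.3). The members beside Fos, Adm and Id1 had replicate 2 folds of at most 2.81, 1.68 and 2.95.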

How the data were processed

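The authors' RAD23B region lists, 1 per library in mm9, give counts of RAD23B and IgG reads, a maximum count, RPM, fold and p-value, per the file headers; the submitters' processing notes name Partek, while aligner and calling settings were not given in the sources used here. In the wild-type lists the deposited fold is a constant times (RAD23B reads + 1) / (IgG reads + 1), 0.954 in replicate 1 and 1.0004 in replicate 2. The fold of the Xpc-/- list does not follow this formula under its headings. The replicate 2 headings name replicate 1 libraries, but the values differ. The submitters' processing notes name TopHat2 2.0.6, Cufflinks 2.0.2, Cuffdiff and mm9 for the deposited RPKM tables; exactly 1 was read as 0, and 72 of 36658 lines without a gene name were left out.

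Each replicate 1 region took the replicate 2 region of longest overlap (at least 1 base). Distances run to the listed loci, 36586 named genes on 28353 loci. Log2 ratios used RPKM + 1 and genes reaching 1 RPKM in 1 of the 2 libraries. Members and lists were chosen with earlier results of these data known. Named regions are the 10 of highest replicate 2 fold, the 5 widest, the 5 with most reads, the 3 largest groups, 3 on each side of each bound, 3 overlapping the Xpc-/- list and the best near each listed gene; named genes are those nearest to most members or with extreme mean ratios. Computations used Python 3.11.15, pandas 2.3.3, numpy 2.4.6 and scipy 1.17.1 and were tested on simulated data. Region sequences were not analysed here, as no mm9 genome was used; the planned motif search was not run.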

Additional observations from a re-analysis of the deposited data

How the results depend on the processing

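Of 20 results recomputed under 18 alternatives, 205 of 289 values stayed within the spread allowed. That spread was the SD between replicate medians for folds and 1.5 times for the count of members. For shares and medians of log2 ratios it was the counting interval. The causes of the shifts below were not tested. Requiring an overlap of 50% of both regions put 50.5% of members within 12 kb of another. Beyond 10 kb from loci, members were 16.4% of shared regions, 69.2% had a replicate 2 fold of at least 2, 49.5% had a neighbour within 12 kb and 52.4% an active nearest locus. Beyond 50 kb, 1851 members (4.77% of shared regions) had a median replicate 2 fold of 2.48, with 72.8% at 2 or more, 34.7% with a neighbour, 42.2% beside an active locus and a median log2 ratio of -0.20 in Rad23b-/- cells. Without the ratio bound these regions were 24.6% of shared ones, with 71.5% at a replicate 2 fold of 2 or more, 53.7% with a neighbour and 52.6% beside an active locus. An authors' fold of at least 2 left 4621 members (25.5% of such shared regions), by construction with higher median folds (2.60 and 2.84), 93.9% at 2 or more in replicate 2, a rho of 0.69 between replicates, 0.390% overlap with the Xpc-/- list and 39.3% with a neighbour. An authors' p-value of at most 0.001 gave 74.99% at 2 or more and 49.8% with a neighbour.

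From 1 replicate alone, without replicate 1 or without replicate 2, members numbered 8991 and 14726, their share of the list was 21.2 and 24.6%, overlap with the Xpc-/- list 0.545 and 0.373%, the share with a neighbour 54.7 and 59.8%, and the share beside an active locus 53.9 and 51.8%. A pseudocount of 0.1 gave a median log2 ratio of -0.17 with KD1, no RPKM filter gave 0 in all 3 mutants, and centring gave -0.0086, -0.0052 and -0.0070 in Rad23b-/-, KD1 and KD2 cells. The shares of nearest genes at least 2-fold higher and lower in Rad23b-/- cells, 4.49 and 5.55%, were 7.44 and 7.64% with a pseudocount of 0.1 and 2.06 and 2.55% with no RPKM filter, where all genes had 8.05 and 6.48% and 1.95 and 1.90%. With KD1 and KD2 the filter's removal gave 1.60 and 1.73% higher and 1.86% lower in both, and protein-coding loci alone gave 1.77 and 1.74% higher and 3.0003 and 3.16% lower. Members within 50 kb of a locus were beside an active one in 57.1% of cases.

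Alternatives chosen after seeing the data were the nearest protein-coding locus (67.6% active), leaving out chromosomes 8 and 15 (21.0% of shared regions, 70.4% at a replicate 2 fold of 2 or more, 0.245% overlap with the Xpc-/- list, 49.4% with a neighbour) and leaving out the highest 10% of IgG reads per kb (19.5%, 73.0% and 49.1% for the share, the fold and the neighbours). No paired analysis was possible because no result comes from a test: each list rests on 1 library pair, and each RNA genotype on 1 library. Regions under the lowest listed read depth, 61 in replicate 1 and 40 in replicate 2, cannot be seen at this depth.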
